A study of Mus musculus with 3 samples.

Results

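Complex I of the mitochondrial respiratory chain was followed through probe sets, groups of short probes read together as 1 signal. All those whose single gene symbol is Nduf followed by a, b, s, v, c or ab and a number were taken. This gave 77 probe sets of 35 genes, of 45101 probe sets and 18194 genes with a single symbol measured in all. Signals came from gastrocnemius muscle, a mixed hindlimb muscle, of male C57BL/6J mice in 3 diet groups, each measured on 1 GeneChip mouse array that held a pool of all samples of the group. HF+SFC mice ate a high-fat diet (60% of kcal as fat) to which 0.023% by weight of sodium ferrous citrate, an iron salt, had been added. HF mice ate the high-fat diet alone, and Control mice ate a diet with 10% of kcal as fat. The mice started the diets at 6 weeks of age and ate them for 15 weeks, although the sample labels state an age of 21 months. All groups share strain, sex and muscle, and a pool of RNA has no spread between animals, so every ratio below has no replicate check and no test was run. In a pool of whole muscle, fewer cells of a type and less RNA per cell cannot be told apart.

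Complex I takes electrons from NADH and passes them through a flavin and a row of iron-sulfur clusters to ubiquinone, while its membrane arm moves protons out of the matrix. The core subunits carry the flavin and the clusters in the matrix arm and the proton channels in the membrane arm, and the accessory subunits wrap around them and are needed for assembly and stability. Muscle mitochondria hold much of the complex, and its matrix arm is a large user of iron-sulfur clusters.

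Of 37 nuclear-encoded subunits listed from textbook knowledge, 34 were measured under the rule, with Ndufa4 as the remaining member. Ndufa4 was first described as a complex I protein and is now placed in complex IV, so it was kept apart from the classes. The measured subunits comprised 6 core subunits (Ndufv1, Ndufv2, Ndufs1, Ndufs3, Ndufs7 and Ndufs8), of which all but Ndufs3 bind iron-sulfur clusters, and 28 accessory subunits. Of the other 3, 1 core subunit was not analysed here, and Ndufs6 and Ndufa11 were measured only by probe sets that name more than 1 gene. The main value of a gene came from its brightest probe set, the one with the highest mean log2 signal on the 3 arrays. Several probe sets, at most 6, were present for 20 members. In all, 33 members lay above the 95th percentile of mean signal over all genes. The exceptions were Ndufb1 and Ndufb4, and the Ndufb4 probe set was below the array median on all arrays.

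The array scaling set the trimmed mean to 500.0 on each array, and the medians over all probe sets were 68.03 in HF+SFC, 67.39 in HF and 63.63 in Control. The ratio of 3' to 5' control probe sets, a sign of RNA integrity, was 1.15 in HF+SFC, 1.52 in HF and 1.09 in Control for beta-actin, and 0.820, 0.832 and 0.842 in the same order for Gapdh. All 10 slow fibre and all 10 fast fibre markers were above the array medians. Their summed signals were 170742 in HF+SFC, 139284 in HF and 168798 in Control for slow fibre markers. Those of the fast fibre markers were 513327, 437239 and 478895 in the same order. The slow fibre list, here and below, includes Myh2, the myosin heavy chain of fast type IIa fibres. Myh2 had 38417 in HF+SFC, 32879 in HF and 35478 in Control. For 7 of 9 adipocyte markers measured, the sums were 82011 in HF+SFC, 85386 in HF and 71151 in Control. Most of each sum came from Car3, with 51978 in HF+SFC, 51953 in HF and 47691 in Control. The ratios of HF to Control ran from 1.09 for Car3 to 12.9 for Lep, with 7 higher and 0 lower. Those of HF+SFC to HF ran from 0.628 for Cidec to 1.08 for Retn, with 2 higher and 5 lower. For 6 fibroblast markers the sums were 38204 in HF+SFC, 38595 in HF and 30490 in Control.

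Most complex I subunits had slightly higher signals in HF+SFC muscle than in HF muscle and slightly lower signals in HF muscle than in Control muscle, and the differences were small. Against HF, 31 of 35 members were higher in HF+SFC and 4 were lower. The median log2 ratio was 0.12 (1.09-fold) and the range -0.18 to 0.58, and quantile normalization left 24 members higher and 11 lower around a median of 0.052. The 7 members on the other side after quantile normalization were Ndufa9, Ndufb10, Ndufb5, Ndufb6, Ndufb8, Ndufc2 and Ndufv1. Of all genes, 51.4% were higher and 48.6% lower in this comparison, with a median of 0.010. The members were also set beside 446 other genes with mean signals between 9880 and 38239, the range of the 33 bright members. Of these genes 72.4% were higher in HF+SFC and 27.6% lower (median 0.074), and of all 1820 genes above the 90th percentile of mean signal 61.8% were higher and 38.2% lower. The slow fibre markers had a median of 0.39 and the fast fibre markers 0.21 in this comparison, each higher in 10 of 10 cases, and the beta-actin ratio also differed between these arrays, but their part in the result was not tested.

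Against Control, 4 of 35 members were higher in HF and 31 were lower. The median log2 ratio was -0.080 (0.946-fold) and the range -0.51 to 0.16, and after quantile normalization 11 were higher and 23 lower around a median of -0.028. Centring each array on its median moved the value the other way, to -0.16, with 1 member higher and 34 lower. Over all genes, 50.7% were higher and 49.3% lower, and over the 446 genes in the same signal range 38.1% were higher and 61.7% lower with a median of -0.041. Above the 90th percentile of mean signal the shares were 42.6% and 57.4%. The slow fibre markers had a median of -0.44 and the fast fibre markers of -0.14, all lower in HF, and the adipocyte markers a median of 0.90, all higher in HF. The beta-actin ratio of 3' to 5' probe sets was 1.52 in HF and 1.09 in Control. Whether these differences bear on the subunits was not tested.

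In HF+SFC against Control the members went both ways: 23 were higher and 12 lower, and the median log2 ratio was 0.044 (1.03-fold) with a range of -0.68 to 0.17. This split depended on the scaling, since quantile normalization gave 18 higher and 17 lower (median 0.0013) and centring each array on its median gave 12 higher and 23 lower (median -0.052). Over all genes 52.4% were higher and 47.6% lower, over genes above the 90th percentile 54.5% and 45.5%, and over the 446 genes in the signal range 67.5% and 32.5%, with a median of 0.038 for the last. The slow fibre markers had a median of 0.030 and the fast fibre markers of 0.10, and the adipocyte markers of 1.02. Each array serves in 2 of these 3 comparisons, so they are given side by side and are not independent of each other.

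**Figure D1:**
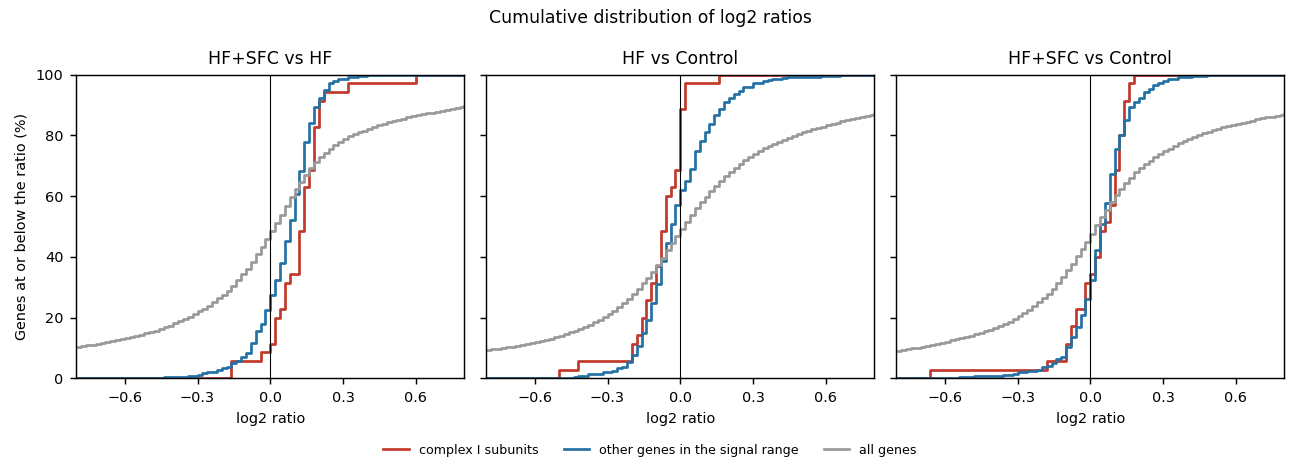
Cumulative share of genes (vertical axis, percent) at or below each log2 ratio (horizontal axis) for the 35 complex I members (red), 446 other genes in their signal range (blue) and all 18194 genes (grey), with 1 array per group. In HF+SFC vs HF the red curve crosses 0 at 4 of 35 members lower, to the right of both other curves around 0.1, and after quantile normalization 11 of 35 are lower. In HF vs Control 31 of 35 lie below 0 (23 after quantile normalization), and in HF+SFC vs Control the red and blue curves run close together.

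Members whose values mark the ends of these ranges were Ndufa1, the highest bright member in HF+SFC against HF, Ndufs8, the lowest there, Ndufs7, the highest iron-sulfur subunit there, and Ndufb6, the highest in HF against Control. Their promoters are shown to give the sequence from which each of these transcripts starts, as RefSeq windows of 300 bases (250 before to 50 after the annotated start, GRCm38.p6, 5' to 3' on the gene's strand). Capitals mark matches on either strand to the letters of factors known for nuclear genes of mitochondrial proteins: the NRF1 motif, CCGGAAG (ETS family, such as GABPA), ATGGCGG (YY1), AAGGTCA (ESRRA), GGGCGG (SP1) and CCAAT (the CCAAT box).
Ndufa1 (chrX:37191189-37191488, minus strand): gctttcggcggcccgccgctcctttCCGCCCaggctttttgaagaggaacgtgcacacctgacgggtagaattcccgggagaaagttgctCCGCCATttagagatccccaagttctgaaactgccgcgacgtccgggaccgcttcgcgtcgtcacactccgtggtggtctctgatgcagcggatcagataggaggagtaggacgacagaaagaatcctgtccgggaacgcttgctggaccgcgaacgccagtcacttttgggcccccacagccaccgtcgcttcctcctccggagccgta
Ndufs7 (chr10:80249199-80249498, plus strand): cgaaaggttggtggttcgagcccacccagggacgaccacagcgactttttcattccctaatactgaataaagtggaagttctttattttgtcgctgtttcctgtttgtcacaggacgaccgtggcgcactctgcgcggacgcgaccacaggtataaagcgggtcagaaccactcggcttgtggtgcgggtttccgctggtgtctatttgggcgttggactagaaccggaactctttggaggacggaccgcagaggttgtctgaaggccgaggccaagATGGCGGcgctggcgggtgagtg
Ndufs8 (chr19:3912725-3913024, minus strand): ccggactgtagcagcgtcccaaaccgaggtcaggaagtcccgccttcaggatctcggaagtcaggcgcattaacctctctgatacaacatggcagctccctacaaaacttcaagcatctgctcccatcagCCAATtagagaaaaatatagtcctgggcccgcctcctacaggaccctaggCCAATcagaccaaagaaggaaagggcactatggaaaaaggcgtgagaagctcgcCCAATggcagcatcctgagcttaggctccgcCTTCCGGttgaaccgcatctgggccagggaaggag
Ndufb6 (chr4:40279372-40279671, minus strand): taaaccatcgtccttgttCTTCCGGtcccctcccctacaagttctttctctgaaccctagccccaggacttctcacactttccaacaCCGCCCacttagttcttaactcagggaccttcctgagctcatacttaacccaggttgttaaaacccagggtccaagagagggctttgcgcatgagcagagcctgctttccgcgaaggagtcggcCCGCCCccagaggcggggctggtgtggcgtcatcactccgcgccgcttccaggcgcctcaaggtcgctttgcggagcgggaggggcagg
Ndufa1 and Ndufs7 hold the YY1 letters, Ndufs8 and Ndufb6 the ETS letters, Ndufa1 and Ndufb6 those of SP1 and Ndufs8 3 CCAAT boxes. Over 34 windows of 32 members, 23.5% held the YY1 letters and 17.6% the NRF1 motif, beside 4.05% and 4.60% of all 32851 windows of the table. Ndufa5 and Ndufa7 each had overlapping windows. The NRF1 and SP1 sites of Ndufa5 and the YY1 site of Ndufa7 were therefore counted more than once in the shares of member windows. The ETS letters were in 11.8% of member windows and 8.86% of all, the ESRRA letters in 8.82% and 4.72%, the SP1 letters in 47.1% and 35.7%, and CCAAT in 26.5% and 37.4%. The NRF1 motif was found in Ndufa5, Ndufa6, Ndufa8, Ndufb4 and Ndufs5, and the YY1 letters in Ndufa1, Ndufa5, Ndufa7, Ndufa9, Ndufb5, Ndufs4 and Ndufs7. The median GC content was 59.3% in member windows and 52.7% in all windows. A match is a description of the letters and says nothing of binding.

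Among core subunits, 5 of 6 were higher in HF+SFC against HF (median log2 ratio 0.094), and all 6 were lower in HF against Control (median -0.042). After quantile normalization these medians were 0.017 (4 higher, 2 lower) and -0.017 (2 higher, 4 lower), and after centring each array on its median the second was -0.12. Ndufv1, which binds NADH and the flavin and holds the first cluster of the chain, had signals of 18084 in HF+SFC, 17399 in HF and 17884 in Control. Ndufv2, its partner in the tip of the matrix arm with a cluster beside the main path, had 31104 in HF+SFC, 28645 in HF and 28885 in Control. Ndufs1, the largest subunit and the holder of several clusters, had 13399 in HF+SFC, 12777 in HF and 14441 in Control. The HF array was the lowest of the 3 for each of these subunits, although after quantile normalization HF was above HF+SFC for Ndufv1 and above Control for Ndufv2. HF+SFC was above Control for Ndufv2 and below it for Ndufs1. On the log2 scale, HF+SFC over HF was 0.056 for Ndufv1, 0.12 for Ndufv2 and 0.069 for Ndufs1, and HF over Control was -0.040, -0.012 and -0.18 in the same order.

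Ndufs7 and Ndufs8 hold the last clusters before ubiquinone. Ndufs7 had signals of 19456 in HF+SFC, 17803 in HF and 19582 in Control, with a log2 ratio of 0.13 for HF+SFC to HF and -0.14 for HF to Control. Ndufs8 had 17923 in HF+SFC, 20274 in HF and 20441 in Control, so that its brightest probe set was lowest in HF+SFC, with log2 ratios of -0.18 to HF and -0.19 to Control. Its 6 probe sets did not go the same way. Of the other 5, those with 19417, 15556 and 17647, with 17889, 15714 and 17084, and with 156, 134 and 168 in HF+SFC, HF and Control were higher in HF+SFC, at ratios of 1.25, 1.14 and 1.17 to HF. Those with 9880, 10026 and 9945 and with 5951, 6614 and 6767 were lower, at ratios of 0.985 and 0.900. The value of Ndufs8 therefore rests on which probe set is read. Ndufs3, a core subunit of the matrix arm without a cluster, had 21431 in HF+SFC, 19036 in HF and 19620 in Control, the highest core ratio of HF+SFC to HF (log2 0.17).

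The 5 iron-sulfur subunits had a median log2 ratio of 0.069 for HF+SFC to HF (4 higher, 1 lower), -0.040 for HF to Control (0 higher, 5 lower) and -0.0093 for HF+SFC to Control (2 higher, 3 lower). After quantile normalization these values were 0.015 (3 higher, 2 lower), -0.023 (2 higher, 3 lower) and -0.052 (1 higher, 4 lower). Centring gave -0.12 for the second and -0.11 for the third, and the mean of all probe sets gave -0.11 for the second and 0.020 for the third. Leaving out probe sets of the _s_at, _x_at and _a_at kinds gave 0.078 for the third, over 4 subunits. The 28 accessory subunits had medians of 0.12 (25 higher, 3 lower), -0.081 (4 higher, 24 lower) and 0.055 (19 higher, 9 lower) in these comparisons. After quantile normalization they were 0.052 (19 higher, 9 lower), -0.040 (9 higher, 18 lower, 1 equal) and 0.0029 (15 higher, 13 lower), and centring gave -0.16 for the second and -0.042 for the third. Accessory minus iron-sulfur medians were 0.054 in HF+SFC against HF, -0.042 in HF against Control and 0.064 in HF+SFC against Control, and accessory minus core medians were 0.029, -0.040 and 0.051. These differences have no error, since each group had 1 array, and no test of them was run. Counting all 15 probe sets of iron-sulfur subunits above the array median, 10 were higher and 5 lower in HF+SFC against HF, beside 42 higher and 10 lower of 52 accessory probe sets. Ndufs8 alone gave 6 of these 15, of which 3 were higher and 3 lower. Probe sets of 1 subunit are not replicates, so the split leans on this subunit.

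**Figure D2:**
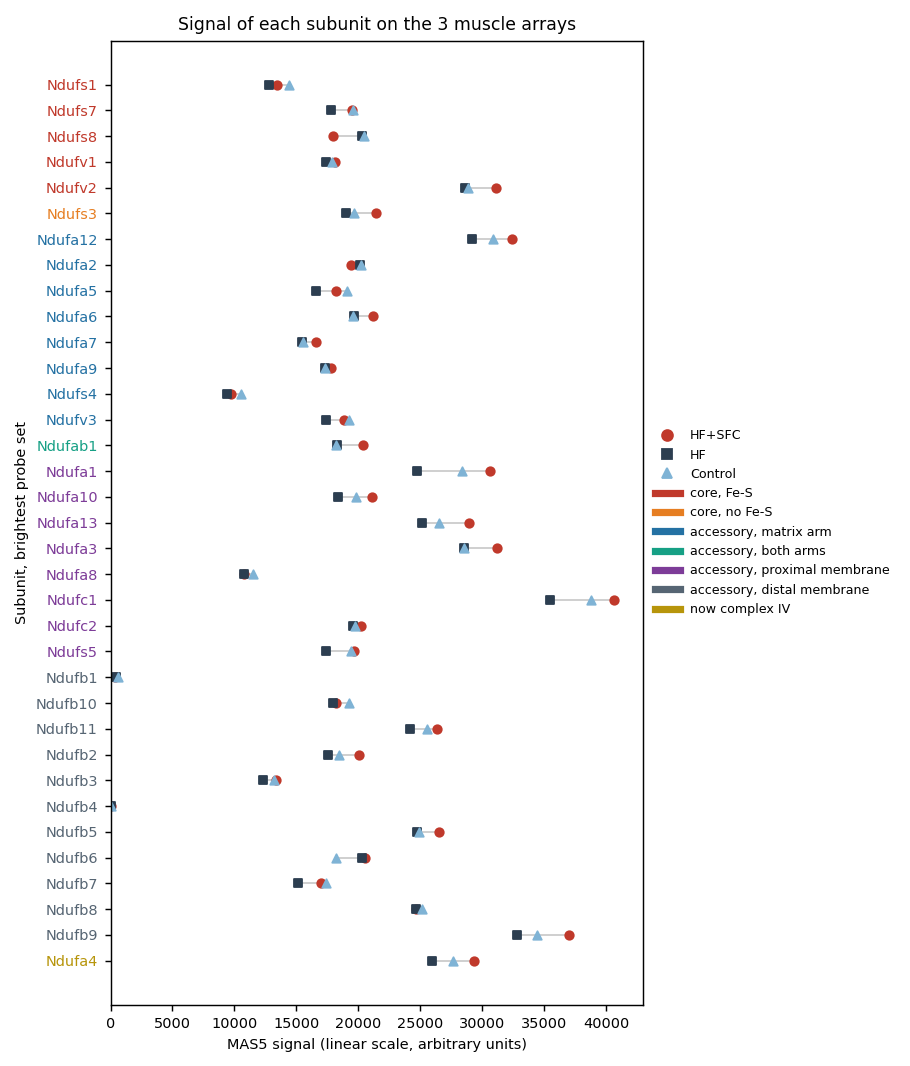
Signal of the brightest probe set of each subunit (horizontal axis, MAS5 units on a linear scale) on the HF+SFC (red circle), HF (dark square) and Control (blue triangle) arrays, with 1 array per group and names coloured by class. The 33 bright subunits lie between 9402 and 40609. Ndufa1 has its HF square at the left end (24719), while Ndufs8 has its HF+SFC circle at the left end (17923) and Ndufb1 and Ndufb4 lie near 0 on this scale.

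Accessory subunits were read by their place in the complex, as 8 of the matrix arm, 8 of the proximal membrane arm (next to the matrix arm), 11 of the distal membrane arm and Ndufab1, which occurs in both arms. The proximal membrane subunits had the highest median in HF+SFC against HF, 0.19 (7 higher, 1 lower), beside 0.12 in the distal arm (10 higher, 1 lower) and 0.11 in the matrix arm (7 higher, 1 lower). For HF against Control these medians were -0.098, -0.080 and -0.047, with 1 subunit higher in each arm. Quantile normalization changed these values. In HF+SFC against HF it gave 0.084 in the proximal arm (6 higher, 2 lower), 0.0090 in the distal arm (6 higher, 5 lower) and 0.050 in the matrix arm (6 higher, 2 lower), and in HF against Control -0.069, -0.052 and -0.0021 in the same order. No test of a difference between the arms was run.

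Ndufa1, a small X-linked subunit that spans the membrane at the junction of the arms, had signals of 30645 in HF+SFC, 24719 in HF and 28367 in Control on its single probe set. The HF+SFC array was highest and the HF array lowest, with a ratio of 1.24 for HF+SFC to HF (log2 0.31) and 0.871 for HF to Control. Ndufa13, also known as GRIM-19 and studied in cell death, had 28976 in HF+SFC, 25171 in HF and 26515 in Control, and Ndufa10, a subunit related to nucleoside kinases, had 21069 in HF+SFC, 18379 in HF and 19808 in Control. These 3 proximal membrane subunits led the bright accessory subunits in HF+SFC against HF, with log2 ratios of 0.20 for Ndufa13 and 0.20 for Ndufa10. The second, dimmer probe set of Ndufa10 had 910 in HF+SFC, 882 in HF and 1039 in Control, a ratio of 1.03 for HF+SFC to HF. Ndufa3, a short membrane-spanning subunit, had 31218 in HF+SFC, 28564 in HF and 28522 in Control, and had a log2 ratio of 0.0021 for HF to Control. Ndufa8, a subunit on the intermembrane side with paired cysteine motifs, had 10757 in HF+SFC, 10798 in HF and 11477 in Control, so that the HF+SFC and HF arrays were alike and both below Control.

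In the matrix arm, Ndufa5 had 18222 in HF+SFC, 16592 in HF and 19071 in Control on its brightest probe set, a log2 ratio of -0.20 for HF to Control. Its other probe set, also bright, had 15377 in HF+SFC, 14680 in HF and 14936 in Control, a log2 ratio of -0.025 for HF to Control. The ratio of HF+SFC to Control was 0.956 on the brightest and 1.03 on the other. Ndufs4, which stabilises the NADH-binding tip and whose loss in mice gives a Leigh syndrome-like disease, had 9756 in HF+SFC, 9402 in HF and 10514 in Control. Its log2 ratio of HF+SFC to Control, -0.11, was among the lowest of the accessory subunits. Another Ndufs4 probe set had 1583 in HF+SFC, 2665 in HF and 2135 in Control, a ratio of 0.594 for HF+SFC to HF, where the brightest gave 1.04. Ndufa2, a thioredoxin-like subunit, had 19405 in HF+SFC, 20109 in HF and 20253 in Control, and was 1 of the 4 members lower in HF+SFC than in HF. Ndufa6, a member of the LYR motif family that binds the acyl carrier protein, had 21223 in HF+SFC, 19641 in HF and 19537 in Control, the HF and Control arrays differing by a ratio of 1.01. Ndufa12, which sits on the matrix arm, had 32386 in HF+SFC, 29162 in HF and 30888 in Control, and a dim probe set of it had 14.0, 42.9 and 50.4 in the same order, below the array medians. A bright one had 16109 in HF+SFC, 17765 in HF and 16408 in Control, a ratio of 0.907 for HF+SFC to HF, where the brightest gave 1.11. Another bright one had 26569, 23956 and 25953 in the same order, lowest in HF like the brightest.

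Ndufab1, the mitochondrial acyl carrier protein, which serves fatty acid synthesis and iron-sulfur cluster assembly as well as complex I, had 20347 in HF+SFC, 18301 in HF and 18225 in Control. The HF+SFC array was the highest, with log2 ratios of 0.15 to HF and 0.16 to Control. Of its 3 other probe sets above the array medians, those with 1043, 1157 and 1022 and with 332, 335 and 312 in HF+SFC, HF and Control were highest in HF, and that with 254, 237 and 203 was highest in HF+SFC.

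In the distal membrane arm, Ndufb6 had 20532 in HF+SFC, 20285 in HF and 18215 in Control on its brightest probe set, and 12835, 12341 and 11507 on the other. Both probe sets were lowest in Control, and with log2 ratios of 0.16 for HF to Control and 0.17 for HF+SFC to Control it was the highest member in both comparisons, and higher in HF than in Control after quantile normalization and after centring as well. Ndufb7, a subunit of the intermembrane side with paired cysteine motifs, had 16974 in HF+SFC, 15113 in HF and 17425 in Control, with log2 ratios of 0.17 for HF+SFC to HF and -0.21 for HF to Control. Ndufb10, of the same kind, had 18189 in HF+SFC, 17996 in HF and 19239 in Control, lower in both high-fat groups than in Control. Ndufb8, a subunit much used as a protein marker of complex I, had 24693 in HF+SFC, 24630 in HF and 25115 in Control, with log2 ratios of 0.0037 for HF+SFC to HF and -0.028 for HF to Control. Ndufb2 had 20080 in HF+SFC, 17520 in HF and 18461 in Control, and Ndufb9, another LYR family member, had 37032 in HF+SFC, 32789 in HF and 34459 in Control, both highest in HF+SFC on the brightest probe set. The other bright probe set of Ndufb2 had 14631 in HF+SFC, 13844 in HF and 14777 in Control, highest in Control. That of Ndufb9 had 32701, 29698 and 31272 in the same order, highest in HF+SFC. Ndufc2, placed in the proximal arm, had 20206 in HF+SFC, 19553 in HF and 19761 in Control. The 7 accessory subunits not described singly (Ndufa7, Ndufa9, Ndufb3, Ndufb11, Ndufc1, Ndufs5 and Ndufv3) had log2 ratios of 0.035 to 0.20 for HF+SFC to HF and of -0.16 to -0.00022 for HF to Control, with Ndufa9 on the other side in both, and Ndufa7 in HF against Control, after quantile normalization.

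**Figure D3:**
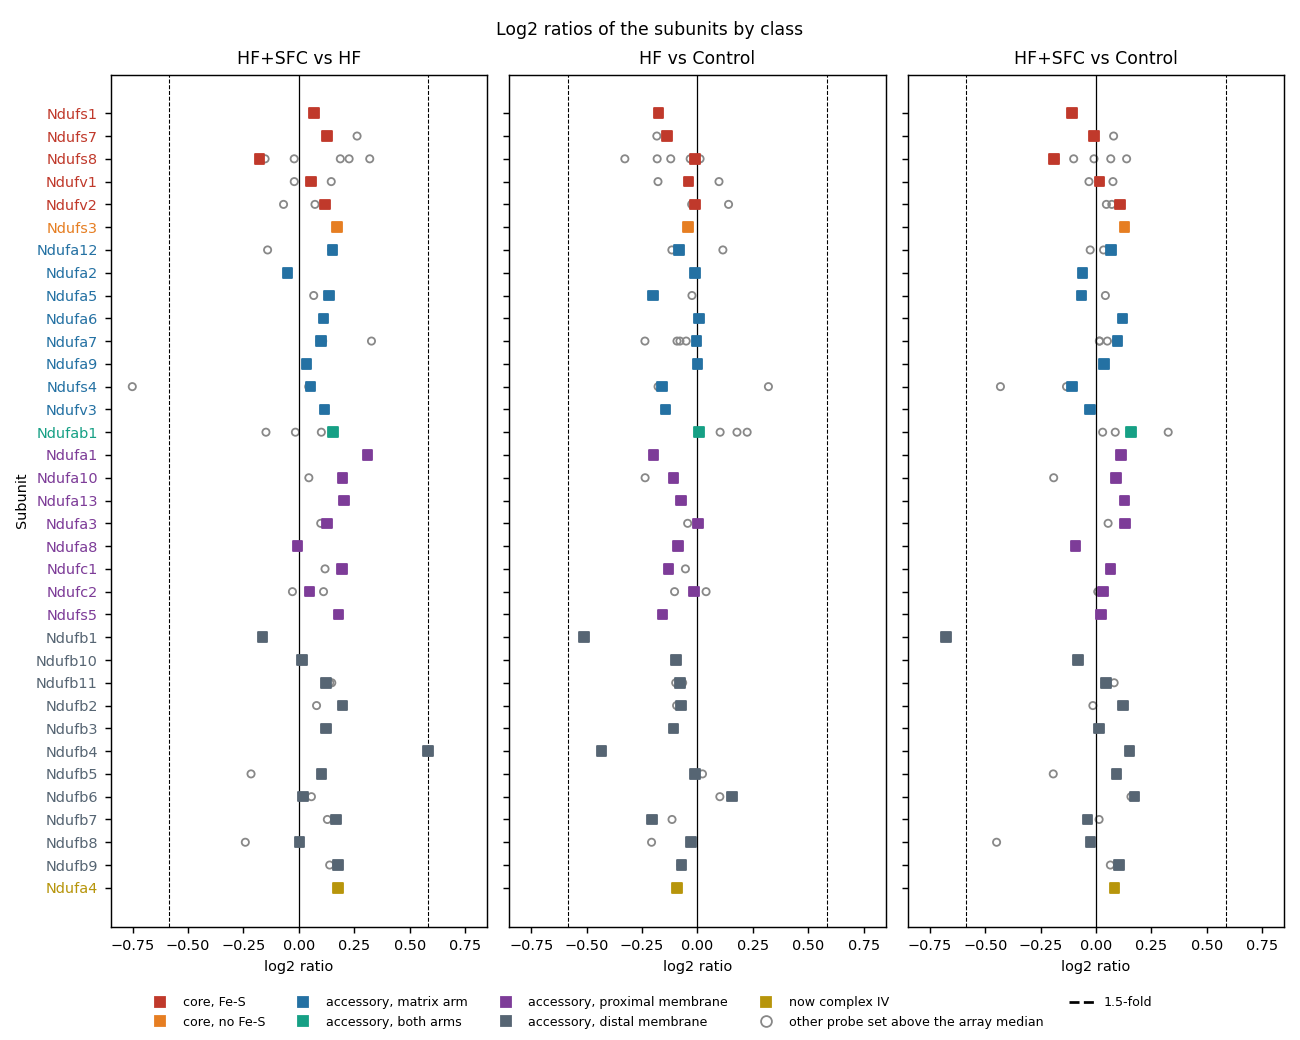
Log2 ratio (horizontal axis) of the brightest probe set of each subunit (squares, coloured by class) and of its other probe sets above the array median (open circles) in HF+SFC vs HF, HF vs Control and HF+SFC vs Control, with dashed lines at 1.5-fold. Squares of HF+SFC vs HF lie mostly right of 0 (31 of 35, and 24 after quantile normalization), Ndufs8 at -0.18 lies left with its circles on both sides, and Ndufb1 at -0.68 in HF+SFC vs Control is the square outside a dashed line.

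Few members passed 1.5-fold, the threshold used in the study. On the brightest probe set, 0 of 35 were 1.5-fold or more above and 0 as far below HF in HF+SFC, where 13.7% and 13.5% of all genes were. The counts for HF against Control were also 0 and 0, beside 17.0% and 12.2% of all genes. Set against Control, HF+SFC had 0 higher and 1 lower, beside 16.5% and 12.4%. At 2-fold the counts were 0 and 0 in each comparison, beside 8.52% and 8.42% of all genes for HF+SFC against HF, 10.7% and 7.51% for HF against Control and 10.6% and 7.47% for HF+SFC against Control. At 1.2-fold, 2 members were higher and 0 lower for HF+SFC against HF (23.1% and 23.8% of all genes), 0 and 2 for HF against Control (28.1% and 23.4%), and 0 and 1 for HF+SFC against Control (27.0% and 22.3%). Of the 446 genes in the members' signal range, 0 were past 1.5-fold in either direction in HF+SFC against HF, 2 were higher and 1 lower in HF against Control, and 1 was higher and 1 lower in HF+SFC against Control. The lower member was Ndufb1, a short distal arm subunit, with 371 in HF+SFC, 416 in HF and 594 in Control, a ratio of 0.625 for HF+SFC to Control. Ndufb4, also of the distal arm, came near the threshold in HF+SFC against HF with a ratio of 1.498, from signals of 38.5 in HF+SFC, 25.7 in HF and 34.7 in Control, all below the array medians. The probe sets that name Ndufb4 together with the related genes Ndufb4b and Ndufb4c were bright, with 25349 in HF+SFC, 23480 in HF and 25107 in Control on one and 20497, 18908 and 18928 on the other.

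With any probe set counted at 1.5-fold, 2 members were higher in HF+SFC against HF (Ndufb2 and Ndufb9) and 3 lower (Ndufa12, Ndufa3 and Ndufs4), beside 26.4% and 26.0% of all genes. For HF against Control 2 were higher (Ndufa3 and Ndufc2) and 2 lower (Ndufab1 and Ndufb2), beside 30.5% and 24.0%, and in HF+SFC against Control 3 were higher (Ndufb2, Ndufb9 and Ndufc2) and 2 lower (Ndufa12 and Ndufb1), beside 30.0% and 24.4%. Apart from the second Ndufs4 probe set and that of Ndufb1, these came from probe sets with signals of at most 109. For Ndufb9 it was one with 40.3 in HF+SFC, 5.83 in HF and 6.19 in Control, for Ndufb2 one with 75.4, 14.2 and 33.5, for Ndufc2 one with 77.3, 109 and 5.96, and for Ndufa3 one with 38.5, 86.0 and 50.4. The dim Ndufab1 probe set had 65.6 in HF+SFC, 45.3 in HF and 83.1 in Control. Over the 7 probe sets not above the median on every array, the log2 ratio differed from that of the brightest by a median of 1.29 in HF+SFC against HF, beside 0.077 for the 35 that were above it.

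**Figure D4:**
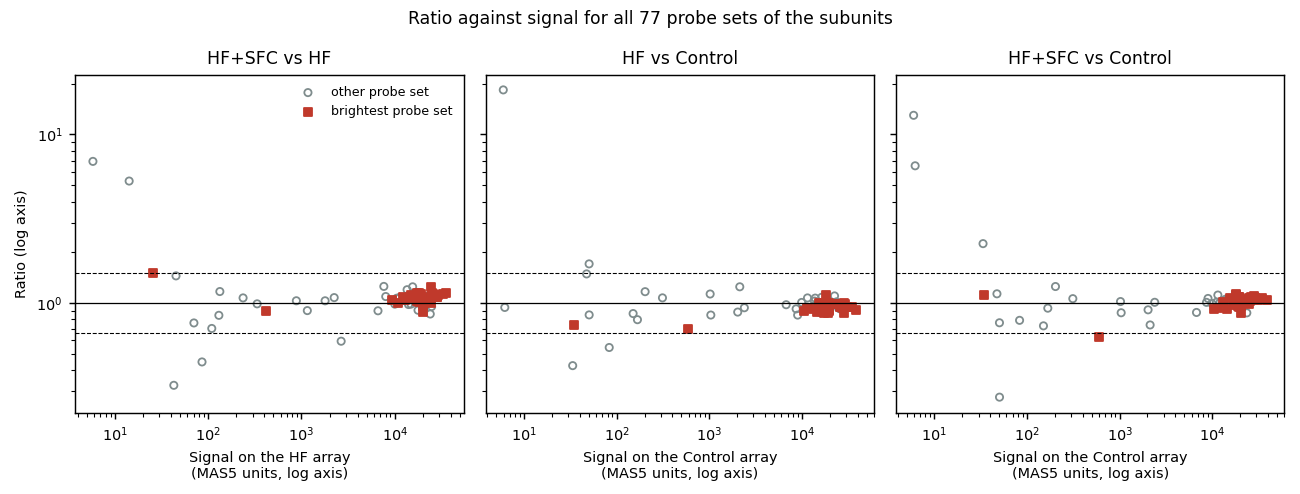
Ratio (vertical log axis) against the signal on the array in the denominator (horizontal log axis, MAS5 units) for all 77 probe sets, the brightest of each subunit as red squares and the others as open circles, with dashed lines at 1.5-fold. Ratios of bright probe sets lie close to 1, and nearly all circles beyond the dashed lines belong to dim probe sets, such as Ndufb9 at 5.83 in HF; the bright exception is an Ndufs4 probe set at 2665 in HF.

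All 69 member probe sets above the array medians can be read in place of the brightest alone. Of these, 54 were higher and 15 lower in HF+SFC against HF, 15 higher and 54 lower in HF against Control, and 46 higher and 23 lower in HF+SFC against Control. Among 20 subunits with several such probe sets, each probe set was higher in HF+SFC relative to HF for 11, all lower for 0, and they went both ways for 9 (Ndufa12, Ndufab1, Ndufb5, Ndufb8, Ndufc2, Ndufs4, Ndufs8, Ndufv1 and Ndufv2). For HF against Control all were higher for 2, all lower for 10 and both ways for 8. For Ndufv1 the other probe sets had 16482 in HF+SFC, 14895 in HF and 16853 in Control, and 14694, 14908 and 13938 in the same order. For Ndufv2 they had 24069 in HF+SFC, 22886 in HF and 23305 in Control, and 23672, 24836 and 22534 in the same order, so that of each pair 1 was highest in HF. For Ndufb5, a distal arm subunit, the brightest had 26547 in HF+SFC, 24719 in HF and 24898 in Control and the other 20685, 24025 and 23650 in the same order, on opposite sides in HF+SFC against HF. Probe sets of 1 subunit can bind different transcript ends and share the same RNA, so they are not replicates.

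**Figure D5:**
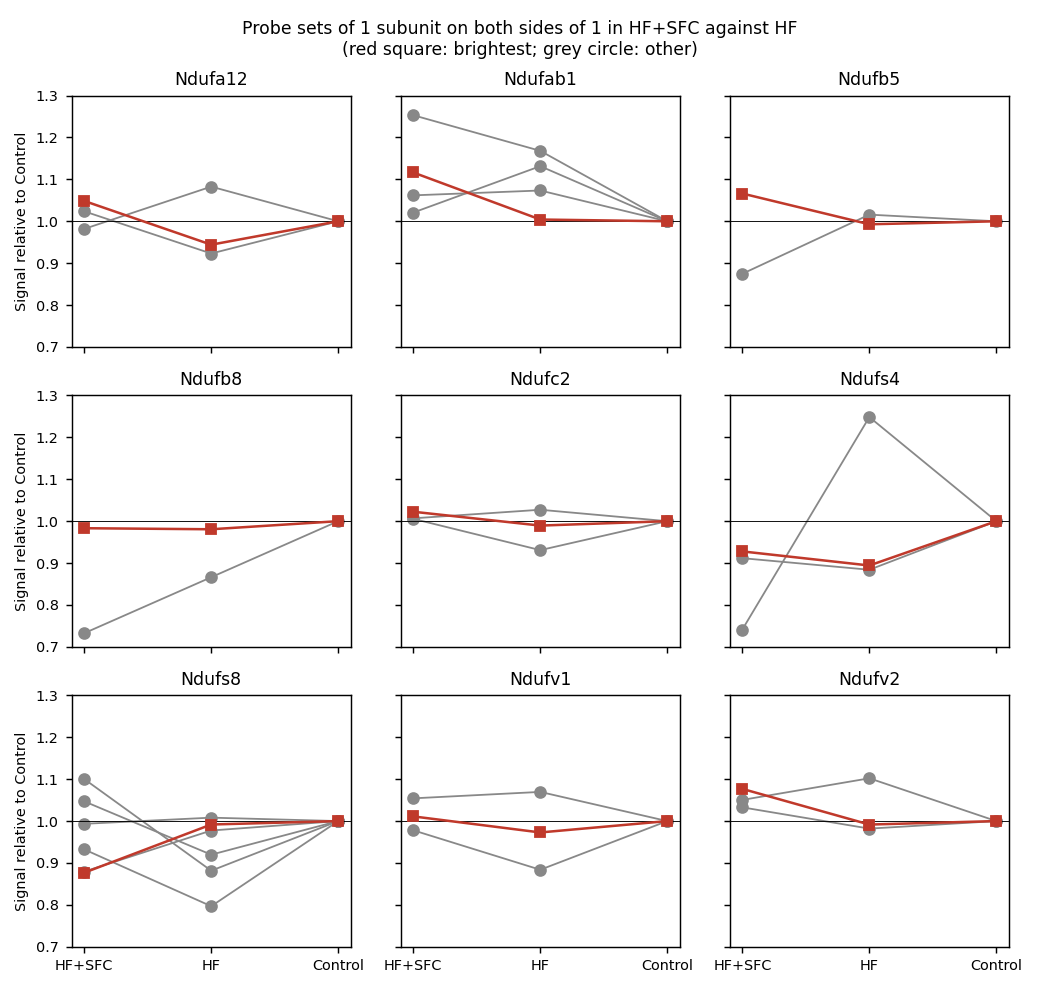
Signal relative to the Control array (vertical axis) on the HF+SFC, HF and Control arrays for each probe set above the array medians of the 9 subunits whose probe sets lay on both sides of 1 in HF+SFC against HF, the brightest as red squares and the others as grey circles. For Ndufs8 the red line is at 0.877 in HF+SFC while another probe set is at 1.10, and for Ndufs4 one probe set is at 1.25 in HF and 0.741 in HF+SFC.

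Ndufa4, now counted with complex IV, had 29314 in HF+SFC, 25957 in HF and 27682 in Control. Its log2 ratios were 0.18 for HF+SFC to HF and -0.093 for HF to Control, within the range of the complex I subunits. ND5, a proton channel subunit encoded in mitochondrial DNA and the only such complex I subunit measured here, had 54904 in HF+SFC, 41522 in HF and 45350 in Control, a ratio of 1.32 for HF+SFC to HF. Of 18 listed assembly factors, which build the complex and are not part of it, 17 were measured. They were higher in 11 cases and lower in 6 in HF+SFC against HF (median log2 ratio 0.058), higher in 4 and lower in 13 in HF against Control (median -0.035), and higher in 8 and lower in 9 in HF+SFC against Control (median -0.033). Nubpl, which delivers iron-sulfur clusters to the complex, had 865 in HF+SFC, 695 in HF and 704 in Control, the highest ratio of the factors in HF+SFC against HF. Ndufaf2, which occupies the place of Ndufa12 during assembly, was lowest there with 870 in HF+SFC, 972 in HF and 860 in Control.

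The other respiratory complexes gave medians of a like size. Between HF+SFC and HF the median log2 ratio was 0.11 for 4 subunits of complex II (4 higher, 0 lower), 0.17 for 9 of complex III (9 higher, 0 lower), 0.13 for 12 of complex IV (10 higher, 2 lower) and 0.12 for 14 of complex V (14 higher, 0 lower), beside 0.12 for complex I (31 higher, 4 lower). The medians for HF against Control were -0.090, -0.11, -0.079 and -0.045 for complexes II, III, IV and V, beside -0.080 for complex I. Of the 446 other genes in the signal range of complex I, 72.4% were higher and 27.6% lower in HF+SFC against HF (median 0.074). Over all genes these shares were 51.4% and 48.6%. Quantile normalization left complex I with 24 higher and 11 lower there (median 0.052). Its effect on complexes II to V was not tested. In HF against Control the median of the 446 genes was -0.041. Complex IV includes Cox7c, with 113 in HF+SFC, 93.9 in HF and 61.3 in Control, near the array medians. No test of a difference between complexes was run.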

How the data were processed

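Total RNA of gastrocnemius muscle, pooled by diet group, was labelled as biotinylated cRNA and hybridised to 1 array per group (the study's design text calls the pooled material cDNA). The deposited values are array intensities on a linear scale, which the authors made with MAS5 per the submitters' processing notes (version not given in the sources used here). No detection calls were used.

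Gene symbols came from the annotation of the array platform and were brought up to date by gene ID with RefSeq genes of GRCm38.p6. Of 45101 probe sets, 64 were controls, some of which had a symbol. Controls included, 34958 probe sets had 1 symbol and 932 had several, while 9160 had none with controls left out. A gene ID of the table was matched by 34754. Log2 ratios used the brightest probe set of a gene with no offset. With 1 array per group no test was run, and the number of arrays limits the precision. The members, classes and lists (assembly factors, complexes II to V, fibre, adipocyte, fibroblast, macrophage, endothelial and erythroid markers) were chosen with earlier results of these data known. The background of other genes in the members' signal range and the omission of Ndufb1 and Ndufb4 were chosen after seeing the values.

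The text names every core subunit, the 4 highest and 4 lowest accessory subunits in each comparison, subunits past 1.5-fold, Ndufa4 and subunits whose probe sets differ by 1.5-fold or more. Others whose probe sets disagree, and ends of the related lists, are named as examples. The alternatives tried were a mean over all probe sets of a gene, quantile normalization, median centring, an offset of 50, removal of probe sets below the array median or with IDs ending in _s_at, _x_at or _a_at, omission of Ndufa4, 1.2-fold and 2-fold thresholds and any probe set. Median and count steps were tested on simulated shifts. RefSeq promoter windows were found for 32 of 35 members, not for Ndufs1, Ndufb9 and Ndufa2. Protein sequences were not used here. Python 3.11.15, numpy 2.4.6, pandas 2.3.3, scipy 1.17.1 and matplotlib 3.10.9 were used.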

Additional observations from a re-analysis of the deposited data

How the results depend on the processing

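No paired analysis was possible because each group had 1 pooled array. All single-array values lack replicate error, and dim signals near the array median carry little information. Centring moved the median of all genes by -0.083 in HF against Control and -0.096 in HF+SFC against Control, more than most class medians there, and turned the core and accessory medians below 0 in the second of these. An offset of 50, removal of dim probe sets and omission of Ndufa4 left the directions and sizes of the medians and of the counts within 1.5 times of those reported. Ratios of single subunits moved by less than the root mean square difference between probe sets of 1 subunit (0.225 in HF+SFC against HF, 0.15 in both other comparisons) in 576 cases and by more in 30, sign changes of small ratios being counted among the 576.

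Quantile normalization gave medians in HF+SFC against HF of 0.052 for all members, 0.017 for core, 0.015 for iron-sulfur and 0.052 for accessory subunits, with 11 members lower. Those in HF against Control were -0.028 for all members, -0.017 for core, -0.023 for iron-sulfur and -0.040 for accessory subunits, with 11 members higher. For HF+SFC against Control they were 0.0013 for all members, -0.041 for core, reversed in sign, -0.052 for iron-sulfur and 0.0029 for accessory subunits.

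Centring each array on its median gave medians in HF against Control of -0.16 for all members, -0.12 for core, -0.12 for iron-sulfur and -0.16 for accessory subunits, with 1 member higher and 1 at least 1.5-fold lower. For HF+SFC against Control the signs of 3 medians turned, to -0.052 for all members, -0.093 for core and -0.042 for accessory subunits, and the iron-sulfur median was -0.11, with 12 members higher and 23 lower.

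The mean of all probe sets gave medians in HF against Control of -0.077 for core and -0.11 for iron-sulfur subunits, and in HF+SFC against Control of 0.021 for all members, 0.027 for core, 0.020 for iron-sulfur, reversed in sign, and 0.018 for accessory subunits. It gave 9 members lower and 2 past 1.5-fold upward in HF+SFC against HF, 7 higher and 1 past 1.5-fold upward in HF against Control, and 2 past 1.5-fold upward in HF+SFC against Control. The alternative averages in dim probe sets by its construction.

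Without probe sets whose ID ends in _s_at, _x_at or _a_at, 28 members remained. For HF+SFC against HF 20 were higher and 8 lower, with 1 at least 1.5-fold higher and 1 lower. For HF against Control 1 was at least 1.5-fold lower and the iron-sulfur median was -0.022. For HF+SFC against Control 6 were lower, 1 was at least 1.5-fold higher and 2 lower, and the medians were 0.079 for core and, reversed in sign, 0.078 for iron-sulfur subunits.

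With a 1.2-fold threshold 2 members were higher in HF+SFC against HF and 2 lower in HF against Control, and with a 2-fold threshold 0 were lower in HF+SFC than in Control. Without Ndufb1 and Ndufb4, 0 members were at least 1.5-fold lower in HF+SFC than in Control. Any probe set gave, at 1.5-fold, 2 higher and 3 lower in HF+SFC against HF, 2 and 2 in HF against Control, and 3 and 2 in HF+SFC against Control. Apart from the construction of the alternatives, the cause of these changes was not tested.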

Other observations

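Probe sets that name a subunit together with a related gene were left out of the counts. That of Ndufs6 and Ndufs6b had 17017 in HF+SFC, 17000 in HF and 16500 in Control, and the brighter of Ndufa11 and Ndufa11b had 9946, 9381 and 9965 in the same order. The dimmer had 68.4 in HF+SFC, 26.5 in HF and 75.3 in Control, a ratio of 2.58 for HF+SFC to HF. Other dim probe sets of this kind were that of Ndufb2 and Adck2, with 238 in HF+SFC, 170 in HF and 405 in Control, and those of Ndufa13 and Yjefn3, with 39.8, 198 and 82.4 and with 5.37, 24.4 and 52.7 in the same order. The probe set of Ndufab1 and its pseudogene had 15007 in HF+SFC, 15916 in HF and 14948 in Control, highest in HF, where the brightest Ndufab1 probe set was highest in HF+SFC. That of Ndufs5 and its pseudogene had 17483 in HF+SFC, 16741 in HF and 17468 in Control, lowest in HF like the Ndufs5 probe set with 19690, 17399 and 19400.

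Ndufa4l2, a relative of Ndufa4 known as a target of hypoxia signalling that lowers complex I activity, had 293 in HF+SFC, 424 in HF and 346 in Control. Its signal was highest in HF, with ratios of 0.691 for HF+SFC to HF and 1.23 for HF to Control, on a single probe set and without replicates.

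Of the other marker lists, medians of the log2 ratio between HF+SFC and HF were -0.14 for 7 adipocyte markers, -0.061 for 6 fibroblast, -0.032 for 6 macrophage and 0.0096 for 5 endothelial markers. The medians for HF against Control were 0.50 for fibroblast, 0.31 for macrophage and 0.036 for endothelial markers, and in HF+SFC against Control 0.42, 0.28 and -0.0071. The 2 erythroid markers measured, of 3 listed, had summed signals of 153 in HF+SFC, 165 in HF and 143 in Control. Alas2 had 103, 160 and 141 in the same order, above the array medians. Hba-a1 was read on a probe set with 49.7, 4.58 and 1.47, below them. Probe sets that name several genes were left out, and the amount of blood RNA in the muscle was not read from these values. For HF+SFC against Control the median log2 ratio was 0.032 for complex II, 0.037 for complex III, 0.048 for complex IV and 0.093 for complex V. The 446 other genes in the signal range of complex I had a median of 0.038 in this comparison.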
